A study of Mus musculus with 3 samples.

Results

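Septin9 and Prex1 are 2 mouse genes chosen here because they stand among the genes with the most regions of Flag-Bcl11a CUT&Tag signal away from gene ends. Their members were the peaks inside each gene or within 100 kb of its outer ends, each peak given to the protein-coding gene with the nearest end. Peaks that overlap were joined into regions, termed reproducible where each of the 3 libraries contributed a peak. Of 22987 reproducible regions in all, 35 belonged to these genes, 19 to Septin9 and 16 to Prex1. Both genes were chosen by their number of regions far from gene ends, and through it by every peak value of these libraries. Counts and strengths are therefore descriptions of these 3 libraries and no test was run on them.

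The material was 3 CUT&Tag libraries of 1 group, made from sorted LSK cells of mouse bone marrow, which lack mature lineage markers, carry Sca-1 and Kit, and include the haematopoietic stem cells. CUT&Tag guides a transposase through an antibody to a chromatin protein, so that DNA beside the protein is tagged for sequencing. All mice carried a 3xFlag knock-in at the Bcl11a gene, which tags the N-terminal end of this zinc finger repressor, per the series' design text, although each sample's genotype label reads wildtype. Nothing in the labels says that the libraries came from separate animals, the age and sex of the mice are not given in the sources used here, and no untagged library was analysed here. An SD here is thus the spread of the libraries and may be technical, and tagging of open chromatin without the protein cannot be told apart from binding.

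Septin9 encodes a septin, one of a family of GTP-binding proteins that assemble into filaments beside actin and microtubules and scaffold the cleavage furrow of dividing cells. Its transcripts begin at several start sites and give proteins with different N-termini. The locus was identified as a retroviral insertion site in mouse T cell lymphoma, and the human gene is a fusion partner of MLL in leukaemia. Prex1 encodes P-Rex1, an exchange factor that loads the GTPase Rac with GTP when the lipid PIP3 and G protein beta-gamma subunits bind it together. It is abundant in neutrophils, where Rac drives chemotaxis and the oxidative burst.

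Libraries 1, 2 and 3 held 38731, 36459 and 43462 peaks on the autosomes, X and Y, and 55, 57 and 60 of these fell to Septin9 or Prex1. Their backgrounds, read from the peak lists as the lowest local background, were 1.07, 1.41 and 1.95 fragments per base, so equal enrichment rests on the fewest fragments in library 1. The fixed markers of LSK cells had a reproducible region within 1 kb of an outer gene end in 8 of 10 cases, among them Kit, Flt3, Cd34 and Mecom. Ly6a, which encodes Sca-1, and Hlf had none. The same count was 1 of 6 for T cell, B cell, granulocyte and monocyte, and stroma and endothelium markers, and 2 of 6 for erythroid markers, where 45.2% of all protein-coding genes had one. Such counts do not measure expression, and the part of other cells in the signal at Septin9 and Prex1 was not tested.

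The start sites of both genes are shown first, because they are the member sites for which sequence was at hand and because Septin9 has several. Each sequence runs from 250 bases before to 50 bases after an annotated start, on the transcribed strand, and comes from RefSeq on GRCm38.p6, the assembly behind mm10. Capitals mark matches to any of 6 short motifs searched on both strands, namely TGACCA for the Bcl11a zinc fingers, TGTGGT for the RUNX factors, GATAAG for the zinc finger factors of the GATA family, CCGGAA for the ETS factors, TGAGTCA for AP-1 and CACCTG for E box proteins. A match on the reverse strand is printed as its complement read on the shown strand.
Septin9 start 1, chr11:117199411-117199710, plus strand, with a reproducible region: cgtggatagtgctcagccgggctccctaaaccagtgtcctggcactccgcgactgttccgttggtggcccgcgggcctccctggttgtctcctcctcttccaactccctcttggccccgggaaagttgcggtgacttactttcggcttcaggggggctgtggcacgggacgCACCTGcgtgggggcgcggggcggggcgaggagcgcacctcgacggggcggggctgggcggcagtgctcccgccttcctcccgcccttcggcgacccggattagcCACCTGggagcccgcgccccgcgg
Septin9 start 2, chr11:117265996-117266295, plus strand, with a reproducible region: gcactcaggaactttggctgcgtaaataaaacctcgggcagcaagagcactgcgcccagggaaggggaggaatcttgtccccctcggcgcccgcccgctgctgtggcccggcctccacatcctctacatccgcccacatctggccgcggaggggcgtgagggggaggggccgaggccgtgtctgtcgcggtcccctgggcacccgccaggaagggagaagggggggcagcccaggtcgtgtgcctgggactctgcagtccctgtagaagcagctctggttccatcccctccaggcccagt
Septin9 start 3, chr11:117331465-117331764, plus strand, with no peak of any library: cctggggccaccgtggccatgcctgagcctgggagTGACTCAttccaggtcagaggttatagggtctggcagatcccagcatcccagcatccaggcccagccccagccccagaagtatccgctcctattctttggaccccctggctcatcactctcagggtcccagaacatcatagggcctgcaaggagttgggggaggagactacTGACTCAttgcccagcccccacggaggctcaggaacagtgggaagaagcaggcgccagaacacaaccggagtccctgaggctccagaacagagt
Septin9 start 4, chr11:117332063-117332362, plus strand, with a reproducible region: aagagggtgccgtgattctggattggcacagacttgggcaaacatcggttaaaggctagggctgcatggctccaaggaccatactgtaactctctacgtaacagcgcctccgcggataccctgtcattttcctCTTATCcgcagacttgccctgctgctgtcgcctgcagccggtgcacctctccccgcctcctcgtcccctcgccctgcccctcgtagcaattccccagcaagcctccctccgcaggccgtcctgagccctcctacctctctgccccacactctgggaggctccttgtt
Prex1 start, chr2:166713783-166714082, minus strand, with a reproducible region: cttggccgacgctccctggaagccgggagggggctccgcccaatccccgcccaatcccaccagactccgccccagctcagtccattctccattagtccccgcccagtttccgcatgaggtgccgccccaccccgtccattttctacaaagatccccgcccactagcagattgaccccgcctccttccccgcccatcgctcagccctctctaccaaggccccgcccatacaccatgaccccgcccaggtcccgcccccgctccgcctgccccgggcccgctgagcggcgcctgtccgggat

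A reproducible region overlapped 3 of the 4 Septin9 start windows and the single Prex1 window, where 31.4% of the 32851 annotated start windows in the RefSeq table were overlapped. Septin9 starts 2, 3 and 4 lie 66.6, 132 and 133 kb inside the gene. The windows differed in base composition. CpG dinucleotides numbered 31 at Septin9 start 1, 18 at start 2, 5 at start 3, 15 at start 4 and 24 at the Prex1 start. The median was 23 in the 10315 windows with a reproducible region and 4 in the windows without one. Septin9 start 3, the window without a peak, had the fewest CpGs of the 5. The region at start 4 began 142 bp beyond this window. Whether the lack of a region at start 3 is a matter of the window's edge was not tested.

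Of the 6 motifs, the E box sequence stood at positions -79 and 27 of Septin9 start 1, counted from the start site as position 1. It was present in 20.2% of all windows. The AP-1 sequence stood at -215 and -44 of start 3, on the reverse strand, against 5.20% of all windows. Start 4 held the reverse GATA sequence at -117, a sequence found in 7.44% of windows. None of these matches overlapped another. Septin9 start 2 and the Prex1 start held none of the 6 sequences. The Bcl11a, RUNX and ETS sequences were in none of the 5 windows, where 13.6%, 16.8% and 14.9% of all windows held them. These are matches of letters and say nothing of which factor was bound.

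Signal at the Septin9 starts was uneven, with the most fragments at an internal start. The region over start 2 (chromosome 11, 117265239 to 117266643) reached 60, 90 and 85 fragments at its summit, its pileup, in libraries 1, 2 and 3. The region over start 1, at the outer end of the gene (117199426 to 117200084), had 22, 30 and 30. The pileup was thus higher at start 2 than at start 1 in every library, with no overlap of the values. The region at start 4 (117331906 to 117332586) lay between them, with 31, 40 and 43 fragments. Fold enrichment, the authors' ratio of summit pileup to local background from the peak caller, set these sites closer together, at 6.30 ± 1.03, 4.93 ± 0.76 and 3.86 ± 0.46 for starts 2, 1 and 4 (SD, n = 3). The fold enrichments of starts 2 and 1 overlapped between libraries, with 6.58, 7.15 and 5.15 against 5.24, 5.48 and 4.06. Start 2 also lies 62 bp beyond the end of the noncoding gene Gm39478, and without strand in the data the region cannot be given to one gene or the other. Among the 7705 reproducible regions over an annotated start, the regions of Septin9 starts 2, 4 and 1 exceeded 90.7%, 62.3% and 42.9% by pileup over the library background, and 33.9%, 2.39% and 12.1% by fold enrichment.

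The Prex1 start region (chromosome 2, 166712877 to 166714232) had pileups of 28, 50 and 43 fragments and fold enrichments of 4.87, 5.71 and 4.21. By pileup over background it exceeded 65.3% of start regions and by fold enrichment 12.1%. Its summits in the 3 libraries lay up to 851 bp apart, the widest spread in this locus. The Prex1 start was therefore neither the strongest nor the sharpest site of its own gene.

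Most of the Septin9 signal lay inside the gene (chromosome 11, 117199661 to 117362325, 163 kb). Of its 19 reproducible regions, 16 had their summit inside, 1 upstream and 2 downstream, and reproducible regions covered 8.78% of the gene. Of the inside regions, 6 lay in the first 81.3 kb from start 1 and 10 in the rest of the gene. No reproducible region lay between 0.133 and 35.6 kb from start 1, where 1 region of 2 libraries and 1 of a single library were found. The RefSeq gene table used carries no exons, so regions were not placed in exons, introns or UTRs.

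The Septin9 region with the most fragments lay 119 kb into the gene (117318549 to 117320727) and was also the widest, at 2179 bp. Its summit pileups were 65, 91 and 118 fragments in libraries 1, 2 and 3, or 62.1 ± 2.27 times the library background (SD, n = 3). Its fold enrichments were 5.06, 5.22 and 5.08, and the local background there was 11.5 times that of the library. A second group stood 107 kb in, where a region at 117306491 to 117307297 had pileups of 63, 78 and 96 fragments. Its neighbour at 117307588 to 117308693, with a summit 1.01 kb further on, had 44, 48 and 55. Both had local backgrounds over 8 times that of the library, at 8.31 and 8.48 times. These sites were high in all 3 libraries. Together with the region over start 2, they are the tallest Septin9 columns in the map of both loci.

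By fold enrichment, the order at Septin9 was different. The highest value belonged to a region 51.1 kb beyond the far end of the gene (117413220 to 117413741), with 9.06, 10.9 and 10.035 in libraries 1, 2 and 3 and pileups of 32, 45 and 54 fragments. It lay 966 bp from the noncoding gene Gm11729 and so fell just short of the distal class. The region 34.7 kb beyond the same end (117396754 to 117397582) had 7.63, 6.998 and 7.43, with 31, 37 and 51 fragments. Both stood where the local background was 2.36 and 3.07 times that of the library. At the edge of the gene, the last region inside (117358104 to 117358534, 4.07 kb before the end) had pileups of 13, 25 and 35 fragments. The exact Poisson interval of the 13 fragments is 6.92 to 22.2, which covers counting error only. Just upstream, 1.55 kb before start 1, a region at 117197941 to 117198661 had 19, 20 and 30 fragments.

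**Figure D1:**
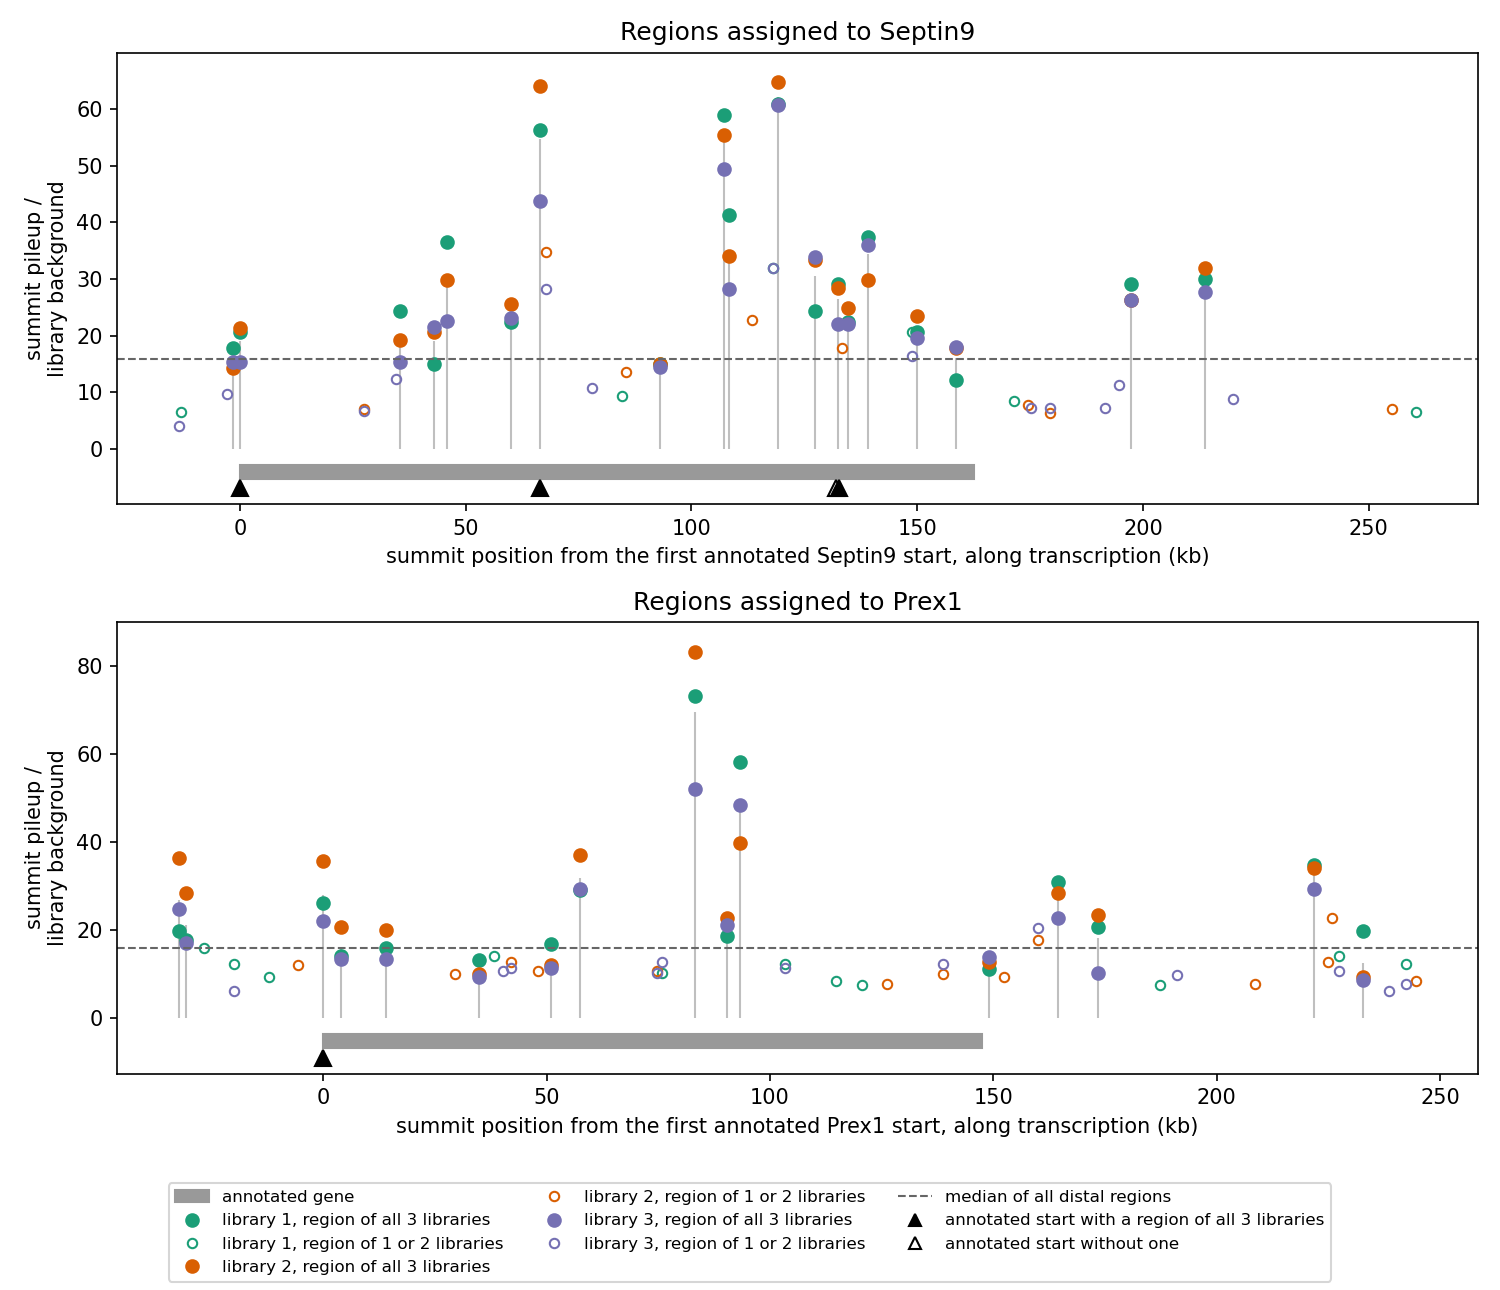
Summit pileup divided by the library background (vertical axis) against the distance of the summit from the first annotated start, in kb along transcription, for all regions assigned to Septin9 (upper panel) and Prex1 (lower panel). Filled points are reproducible regions and open points regions of 1 or 2 libraries, coloured by library, with grey stems at the mean of 3 libraries, triangles at annotated starts and a dashed line at 15.9, the median of all distal regions. The tallest columns lie inside the genes, 119 kb from the first start in Septin9 and 83.3 kb in Prex1.

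Prex1 (chromosome 2, 166566345 to 166713832, 147 kb) had its regions spread more widely over its surroundings. Of 16 reproducible regions, 8 had their summit inside the gene, 5 downstream of its far end and 3 upstream, 1 of these being the start region with its summit 20 bp outside. Reproducible regions covered 4.84% of the gene. Those inside stopped 93.3 kb from the start, and the next reproducible region followed after 55.8 kb, beyond the gene's end. That stretch held 2 regions of 2 libraries and 3 of a single library.

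A pair of sites in the middle of Prex1 had the highest pileups of the locus. The region 83.3 kb from the start (166630110 to 166631355) was first by both measures, with pileups of 78, 117 and 101 fragments and fold enrichments of 9.52, 11.0 and 7.81. Its pileup was 69.4 ± 16.0 times the library background (SD, n = 3) and exceeded 95.7% of all distal regions by that measure. The region 93.3 kb from the start (166620241 to 166621164) had 62, 56 and 94 fragments and fold enrichments of 8.45, 5.88 and 6.74. Between them, a region at 166622864 to 166623628 had 20, 32 and 41 fragments and a fold enrichment of 2.89 ± 0.31 (SD, n = 3), the lowest of the locus. The values of the 2 flanking regions did not overlap those of the middle one in any library.

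Outside Prex1, the strongest site lay far downstream. The region 74.4 kb beyond the far end (166491759 to 166492321) had fold enrichments of 7.69, 6.64 and 6.86 and pileups of 37, 48 and 57 fragments. Upstream, a pair of regions stood 30.7 and 32.3 kb before the start. The farther one (166745887 to 166746676) had 21, 51 and 48 fragments and fold enrichments of 5.08, 8.24 and 6.43. Library 2 had the highest fold enrichment at both. Nearest to the far end, a region 1.64 kb outside (166564418 to 166564956) had 12, 18 and 27 fragments, where the exact Poisson interval of the 12 is 6.2 to 21.0. The libraries differed most at 166540040 to 166540504, where fold enrichment was 6.36 and 7.39 in libraries 1 and 2 and 3.33 in library 3.

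Many regions at both genes failed to appear in all libraries, as in the whole series. Septin9 had 41 regions of any kind, of which 46.3% were reproducible, and Prex1 had 43, of which 37.2% were. The share in the whole series was 37.8%, and 29.5% among its regions with a summit over 1 kb from every gene end. Those of 2 libraries numbered 5 at Septin9 and 9 at Prex1, and all 14 included library 3, the library with the highest background. Those of 2 libraries had pileups of 9 to 62 fragments at Septin9 and 11 to 40 at Prex1. Those of a single library had pileups of 7 to 32 fragments at Septin9 and 8 to 32 at Prex1. Pileups of reproducible regions ran from 13 to 118 fragments at Septin9 and from 12 to 117 at Prex1.

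At the edges of the rule, regions just inside and just outside were as follows. Upstream of Septin9, the last member had a fold enrichment of 4.24 ± 0.47, against 4.87 ± 0.69 for the next region out (117177182 to 117177904), which lay 22.2 kb from Septin9 and went to Sec14l1 at 18.1 kb (SD, n = 3). Downstream of Septin9, the last member had 9.99 ± 0.92, against 5.56 ± 0.80 for the next region, 121 kb away and so beyond the 100 kb reach. Downstream of Prex1, the last member lay 85.3 kb away with 4.96 ± 1.39, and the next region, 107 kb away, had 4.03 ± 0.23. Upstream of Prex1, the last member had 6.58 ± 1.59, against 6.63 ± 1.97 for the region at 166754329 to 166755314, which went to Trp53rkb (SD, n = 3). The values inside and outside overlapped on every side but downstream of Septin9. The other protein-coding genes with an end in the windows were Sec14l1, Trp53rkb and Arfgef2. Trp53rkb had no reproducible region within 1 kb of an end. An end was occupied at Sec14l1, whose end region had fold enrichments of 11.9, 13.4 and 13.99, and at Arfgef2, which encodes an exchange factor for ARF GTPases, with 10.9, 8.25 and 9.87. By fold enrichment these stood above every Septin9 and Prex1 start region in each library. By pileup they did not, since Septin9 start 2 had 60, 90 and 85 fragments, against 57, 82 and 119 at Sec14l1 and 35, 40 and 53 at Arfgef2.

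Distal regions, those with a summit over 1 kb from the outer ends of every annotated gene, numbered 15 at Septin9 and 14 at Prex1. Septin9 shared rank 2 and Prex1 rank 4 among 21883 protein-coding genes, which averaged 0.543 such regions. At least 14 were found at 0.0274% of protein-coding genes, and at least 1 at 28.4%. This is the measure that chose the genes, and nothing is read from it. In the libraries taken singly, Septin9 had 23, 24 and 28 distal peaks and Prex1 23, 27 and 25, where the mean gene had 1.04, 0.96 and 1.20. Septin9 had ranks 1, 3 and 2 in libraries 1, 2 and 3, and Prex1 had ranks 1, 1 and 4. One of the 15 at Septin9 is the region at annotated start 4, so distal here does not mean away from every promoter.

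**Figure D2:**
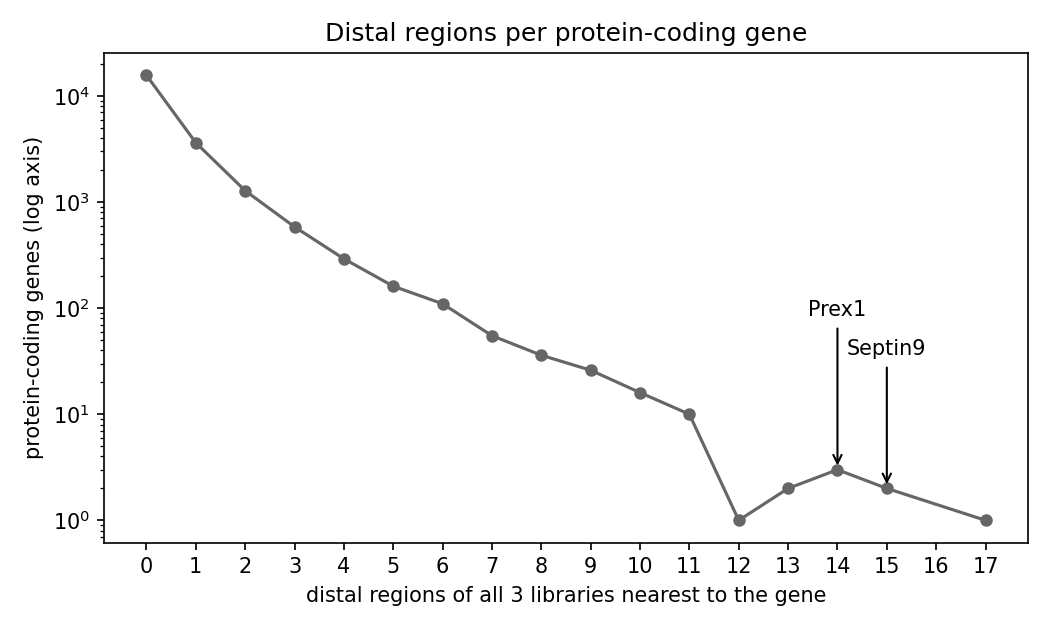
Number of protein-coding genes (vertical axis, log scale) by the number of reproducible distal regions nearest to them (horizontal axis). Arrows mark Septin9 with 15 and Prex1 with 14, where the highest count of any gene was 17.

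Both genes own long stretches of the genome. The bases nearest to an end of the gene, within 100 kb, came to 283 kb for Septin9 and 287 kb for Prex1, against a median of 46.5 kb. Per 100 kb of this domain, Septin9 had 5.30 and Prex1 4.88 distal regions, and the whole set of domains had 0.699. The 1054 genes with a domain of at least 250 kb had a mean of 1.05 and a median of 0. The summits of neighbouring reproducible regions stood a median of 8.34 kb apart at Septin9 and 11.0 kb apart at Prex1.

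The distal regions of both genes had high pileups but middling to low fold enrichment. The median pileup was 26, 36 and 43 fragments at Septin9 and 21, 36.5 and 37 at Prex1 in libraries 1, 2 and 3, against 18, 23 and 28 over all 13052 distal regions. In each library both genes stood above the median of all distal regions. As a multiple of the library background the medians were 24.0 ± 1.77 for Septin9, 21.5 ± 3.83 for Prex1 and 15.9 ± 1.30 for all distal regions (SD, n = 3). The median fold enrichment was 4.77, 5.02 and 4.44 at Septin9 and 5.46, 5.93 and 4.94 at Prex1, against 5.90, 5.82 and 5.53 over all distal regions. Septin9 was below all distal regions in 3 of 3 libraries, whereas Prex1 was below in libraries 1 and 3 and above in library 2.

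**Figure D3:**
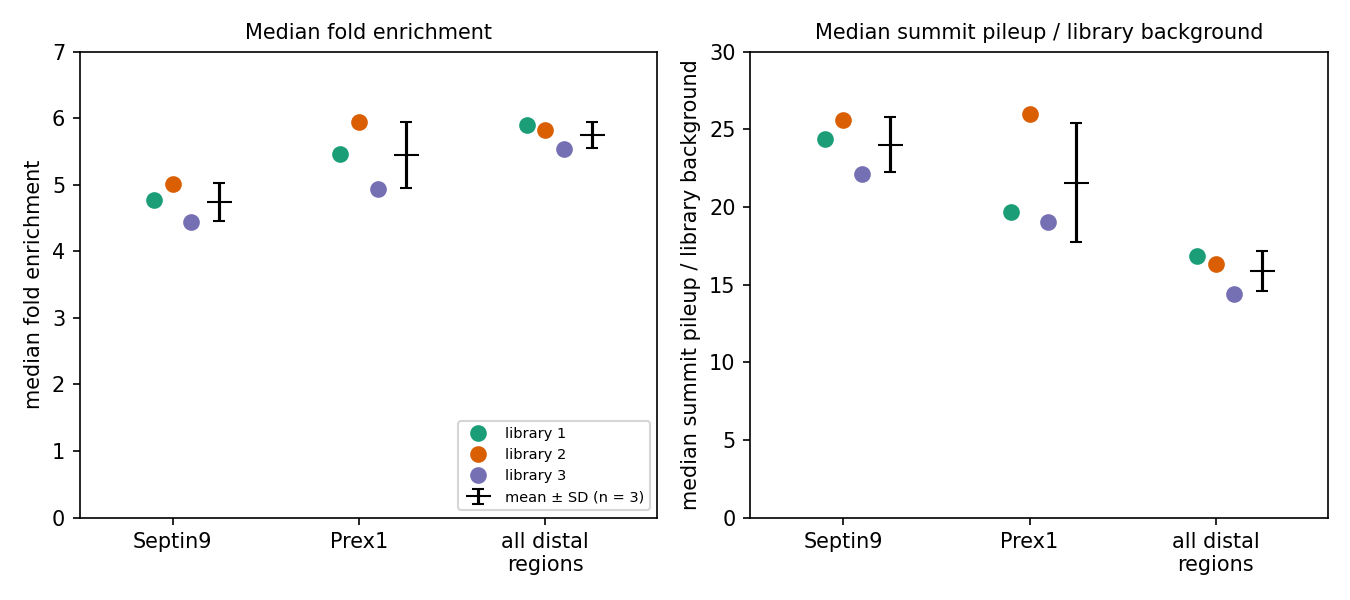
Median fold enrichment (left panel) and median summit pileup over the library background (right panel) of the distal regions of Septin9, of Prex1 and of all 13052 distal regions, with a point for each library and a black bar for the mean ± SD of 3 libraries. Septin9 and Prex1 lie above all distal regions in pileup, at 24.0 and 21.5 against 15.9, and Septin9 lies below in fold enrichment, at 4.74 against 5.75.

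The measures differ by construction, since fold enrichment divides by the local background. At Septin9 the local background of the distal regions was a median of 4.83 times that of the library, and at Prex1 3.88 times, against 2.07 times for all distal regions. It exceeded 2 times the library background at all 15 distal regions of Septin9, and at 51.8% of all distal regions. Of the 14 distal regions of Prex1, only that at 166480806 to 166481163 stayed below, at 1.89 times. Among the 15 distal regions of Septin9, 2 were above the median of all distal regions by fold enrichment and 13 by pileup. For the 14 of Prex1 these counts were 6 and 11. By pileup, 2 regions of each gene were in the top 10% of all distal regions, and by fold enrichment 0 of either. The Prex1 region 83.3 kb from the start missed it narrowly, with a mean fold enrichment of 9.45 against a limit of 9.46.

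**Figure D4:**
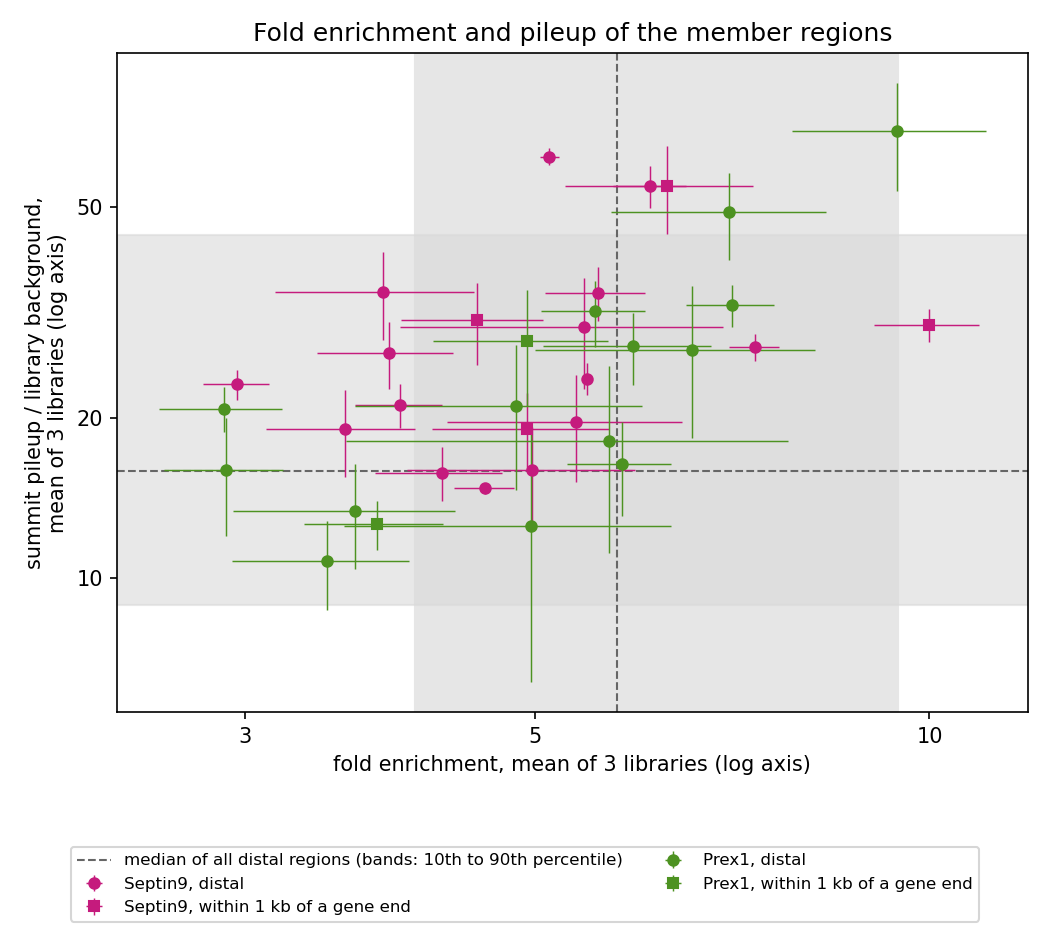
Mean fold enrichment (horizontal axis, log scale) and mean summit pileup over the library background (vertical axis, log scale) of the 35 reproducible regions of Septin9 and Prex1, with SD bars over 3 libraries. Circles are distal regions and squares regions within 1 kb of a gene end. Dashed lines give the medians of all distal regions, 5.78 and 15.9, and bands their 10th to 90th percentiles. Of the 35 points, 19 lie above the horizontal line and left of the vertical one.

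Of the 35 genes with at least 10 distal regions, these included, 25 had a median fold enrichment below that of all distal regions and 29 a median pileup above it, with 21 meeting both. The median width of distal regions was 807 bp at Septin9 and 597 bp at Prex1, where all distal regions had 688 bp. The summits of the 3 libraries lay a median of 155 and 95 bp apart at the distal regions of Septin9 and Prex1, and 126.5 bp over all distal regions. Spearman's rho of pileup between pairs of libraries was 0.86 to 0.94 over the 19 regions of Septin9 and 0.74 to 0.92 over the 16 of Prex1. For fold enrichment it was 0.61 to 0.80 at Septin9 and 0.64 to 0.81 at Prex1. The regions of a locus are not independent points.

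When distal regions less than 10 kb apart were joined across the genome, neither locus formed a single cluster. The 15 distal regions of Septin9 fell into 8 clusters, 4 of them with at least 2 regions, and the 14 of Prex1 into 8, 5 of them with at least 2. The strongest Septin9 cluster spanned 14.2 kb (117306491 to 117320727) and held 3 regions, and the strongest of Prex1 spanned 11.1 kb (166620241 to 166631355) and also held 3. By summed pileup over background they ranked 239 and 271 of 10157 clusters. By summed fold enrichment the same clusters ranked 812 and 430, so the order of the 2 genes turned round.

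Among the genes most like Septin9 in number of distal regions, with ties settled by mean log2 fold enrichment, were Zmiz1 with 15, Prex1 and Rgs3 with 14 each, and Gm52481 on chromosome Y with 13. For Prex1 they included Rgs3, Zmiz1, Septin9 and Ksr1, the last with 13. Zmiz1 encodes a transcriptional coactivator, Rgs3 a regulator of G protein signalling and Ksr1 a scaffold of the Ras and MAP kinase pathway. Septin9 had 5.30 and Prex1 4.88 distal regions per 100 kb of domain, against 6.92 for Zmiz1, whose domain was shorter at 217 kb. The median pileup over the regions was 23.7 times the library background for Septin9 and 21.0 times for Prex1, against 29.96 times for Zmiz1. The order of the first few genes rests on counts that differ by 1 or 2 regions.

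None of the other septin genes had more than 2 distal regions. The 12 other septin genes had 7 distal regions together, 0.583 per gene, close to the 0.543 of all protein-coding genes. Septin8, which had no region at either end, came next after Septin9 with 2, and Septin1, Septin4, Septin5, Septin11 and Septin12 had 1 each. Septin2, Septin3, Septin6, Septin7, Septin10 and Septin14 had 0. An outer end was occupied by a reproducible region in 7 of 13 septin genes, Septin9 included (53.8%), where all protein-coding genes had 45.2%. Among these 7 were Septin2, Septin6 and Septin7, which pair with each other in the core filament. Septin3, Septin8, Septin12 and Septin14 were among the 6 with no region at an end. Septin4 and Septin11 were as well, yet both had a region over an annotated start window. Of 10 septin partner genes, 8 had an occupied end, against the same 45.2%, and Cdc42ep4, one of the Borg proteins that bind septins under the control of Cdc42, had 5 distal regions.

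Most genes of the lists around P-Rex1 had signal at an end. An end was occupied in 51 of 65 genes of the fixed P-Rex1 and Rac lists (78.5%), Prex1 included, where all protein-coding genes had 45.2%. The 16 inputs of P-Rex1, which make or remove PIP3, supply G protein beta and gamma subunits or form the protein kinase that restrains it, included 15 with an occupied end. Pik3r1, the regulatory subunit of PI 3-kinase, had 7 distal regions and Pik3cd and Gng2 had 4 each, while Pik3ca, Pik3r5, Gnb2, Gng5 and Prkaca had 0. Prkar1a was the single member with no region at an outer end, though 4 of its 6 annotated starts had one.

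The 20 other Rac exchange factor genes and adaptors had 49 distal regions, 2.45 per gene, where all protein-coding genes had 0.543. Their domains ran from 24.0 kb at Def6 to 393 kb at Elmo1, all but Def6 above the median of 46.5 kb for protein-coding genes. The counts per gene were not corrected for domain length. Trio had 9 and Vav2 8, followed by Tiam1 with 5 and Elmo1 and Def6 with 4 each. Prex2, the closest relative of Prex1, had an occupied end and 0 distal regions in a domain of 355 kb, and Dock1, Tiam2 and Rasgrf2 had 0 as well. Vav1 and Dock2, the exchange factors of blood cells, had 2 each. Among Rac GTPase genes and regulators, 8 of 10 had an occupied end, including Rac1 and Rac2, and Arhgap25, a GTPase-activating gene for Rac, had 6 distal regions. Of 18 effector genes, 12 had an occupied end, and both counts are to be read against the 45.2% of all protein-coding genes. Wasf2, a subunit of the WAVE complex that drives actin branching, had 6 distal regions. Among the oxidase genes, Cyba and Ncf4 had an occupied end and Cybb and Ncf1 did not. The lists hold genes whose share of occupied ends was not tested against other genes.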

How the data were processed

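CUT&Tag libraries of Flag-tagged Bcl11a in LSK cells were read as 3 peak lists, 1 per library, grouped by their titles. The submitters' processing notes name Bowtie2, SAMtools and MACS2 and the build mm10. For versions and duplicate removal, they are silent. Each deposited list gives a fold enrichment (a ratio), −log10 p and −log10 q per peak, all the authors' own values, with the lowest −log10 q at 1.30.

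From these, the summit pileup and local background were solved, taking fold enrichment as pileup plus 1 over background plus 1 and p as a Poisson tail. The p of 99.99% of peaks was matched within 0.01 on the log10 scale by a whole pileup. Peaks overlapping by at least 1 bp were joined, and a region takes each library's peak of highest fold enrichment. Gene ends, start windows and sequences came from RefSeq tables of GRCm38.p6. All 128 list entries matched a gene. The calculations used Python 3.11.15 with pandas 2.3.3 and scipy 1.17.1 and were tested on simulated data. Mitochondrial peaks were left out.

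The genes and lists were chosen with earlier results of these data known. Named were Septin9, Prex1, protein-coding genes with an end in their windows, the 5 genes nearest in number of distal regions, and list members with the highest or zero counts. Regions named were the 3 strongest of each locus by each measure, the widest and those nearest the ends. Other regions and list members in the text were chosen after their values were seen. Some genes that the rule names are not reported here. Alternatives were other peak thresholds, overlaps, library numbers, distances and windows.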

Additional observations from a re-analysis of the deposited data

How the results depend on the processing

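No paired analysis was possible because the 3 libraries form a single group. Among the alternatives tried, the counts moved most with the peak threshold. With the 10000 strongest peaks of each library, Septin9 kept 6 reproducible and 4 distal regions and Prex1 4 and 4. Median fold enrichments were then 5.88 and 7.04. An occupied end was left at 7 of the 23 septin and septin partner genes, against 15 with all peaks. For the 65 P-Rex1 and Rac genes the count was 18, against 51. The 45.2% of all protein-coding genes holds for all peaks, and no such share is given for the other peak sets. With −log10 q of at least 5, Prex1 had 9 reproducible and 8 distal regions at a median of 6.23, and Septin9 had 16 and 12. With regions of at least 2 libraries, Prex1 had 25 reproducible and 22 distal regions at a median of 4.81, and the Septin9 median was 4.29. Stricter peak sets hold fewer and stronger peaks by construction. With 50% reciprocal overlap, Septin9 had 12 and Prex1 11 distal regions, and 40 of the 65 P-Rex1 and Rac genes had an occupied end. With distal set at over 3 kb from gene ends, Septin9 had 11 and Prex1 13, so the order of the 2 genes turned round. Leaving out 1 library gave 20 to 22 reproducible and 16 to 18 distal regions for Septin9 and 16 to 21 and 14 to 18 for Prex1. The medians then ran from 4.13 to 4.70 for Septin9 and from 4.45 to 5.69 for Prex1. Septin and septin partner genes with an occupied end stayed at 15 and those of the P-Rex1 and Rac lists numbered 50 to 54. The rank of the strongest cluster by summed pileup, 239 for Septin9 and 271 for Prex1, was 121 for Septin9 with a 20 kb gap, 445 and 690 with a 5 kb gap, and 812 and 430 by summed fold enrichment. A start window in place of an outer end was a choice made after seeing the data. Of the septin and septin partner genes, 19 have such a window, and 14 of these had a reproducible region over one. Of the P-Rex1 and Rac genes, 51 have one, and 39 had a region there. Of all protein-coding genes with such a window, 44.1% had a reproducible region over one. Low pileups in library 1 limit how firmly weak regions can be called missing.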
